A study of Mus musculus with 8 samples.

Results

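The genes of fatty acid uptake, fatty acid oxidation and ketone use were followed in mouse calf muscle during sepsis. These 44 genes were taken by gene symbol from the deposited table of 25655 genes, which held a row for all 44 of them, and they were sorted into 9 steps from the cell surface to the ketone bodies. Both groups of gastrocnemius samples, all from male wild-type mice at day 4, were compared. The 3 sepsis libraries came from animals that received cecal slurry (gut contents in suspension, which cause sepsis with many microbes) and the 5 control libraries from animals given 10% glycerol. The title of the series concerns β-nicotinamide mononucleotide, an NAD precursor, but no sample labelled with it was analysed here. Whether each library stands for its own animal is not stated, and the p-values rest on the variation among these libraries, which may be technical.

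Muscle takes up fatty acids released by lipoprotein lipase in the capillaries, carries them across the membrane and cytosol, and activates them to acyl-CoA. The carnitine shuttle then moves long chains into the mitochondrion, under the control of malonyl-CoA, and a repeating cycle of dehydrogenation, hydration, a further dehydrogenation and thiolysis shortens them. Electron transfer flavoprotein passes part of the electrons to the respiratory chain. Peroxisomes run a similar cycle on chains that are very long or branched. Ketone bodies made by the liver from fatty acids are turned back into acetyl-CoA in muscle mitochondria.

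The libraries held between 3086277 and 4016329 reads, made from the 3′ ends of polyadenylated transcripts. Each transcript gives about the same number of such reads whatever its length, so levels are given as CPM, the usual depth-scaled read count, with TMM factors, which correct for differences in library composition, and were not divided by length. Skeletal muscle markers were abundant in all libraries: Acta1, skeletal actin, had 8070 to 12040 CPM in sepsis and 26770 to 31110 in controls. Hepatocyte markers, summed over 6 genes, stayed between 0 and 0.628 CPM in sepsis and between 0 and 0.829 in controls. The septic group was the less uniform, with a chi-square per degree of freedom of 11 to 26.3 between septic pairs and 2.04 to 6.86 between control pairs. Reads from the mitochondrial genome made up 12.6% to 16.9% of septic and 21.7% to 26.7% of control libraries, and summed red cell genes had 14.2 to 89.3 CPM in sepsis and 43.8 to 951 CPM in controls. The part of these differences in the results below was not tested. In bulk muscle, fewer cells of a type and less RNA per cell cannot be told apart.

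Enough reads for a test were present for 42 of the 44 genes, and sepsis split them. In the quasi-likelihood test of edgeR, adjusted by Benjamini-Hochberg over 9810 genes, 13 rose, 14 fell and 15 did not pass the threshold of 0.05. That is 64.3% called, against 50.4% of all genes tested, with 31% higher and 33.3% lower, against 25.2% in each direction among all genes. The median log2 fold change of the 42 genes was 0.01, the same as the 0.01 of all genes tested. The groups did not overlap for 19 of them, or 45.2%, against 47.4% of all genes. Of these, 7 were higher and 12 lower in sepsis, where all genes had 23.1% higher and 24.3% lower. The count of higher genes rested in part on single libraries: it was 8 without sepsis 1 and 8 without sepsis 3, and the count of lower genes was 17 without sepsis 1. Scaling by library totals alone moved the median of all genes to 0.43 and of these genes to 0.43 as well, with 21 higher and 6 lower. Under that scaling 8 calls were gained, all of them higher in sepsis: Cpt2, Crat, Hadha, Hadhb, Etfa, Etfdh, Ech1 and Hsd17b4. In all 16 alternative analyses the same direction and call were kept by 11 genes. They were Cd36, Acadl, Echs1, Eci2 and Acot2, which rose, and Acadm, Acaa2, Eci1, Acot7, Acot13 and Oxct1, which fell.

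**Figure D1:**
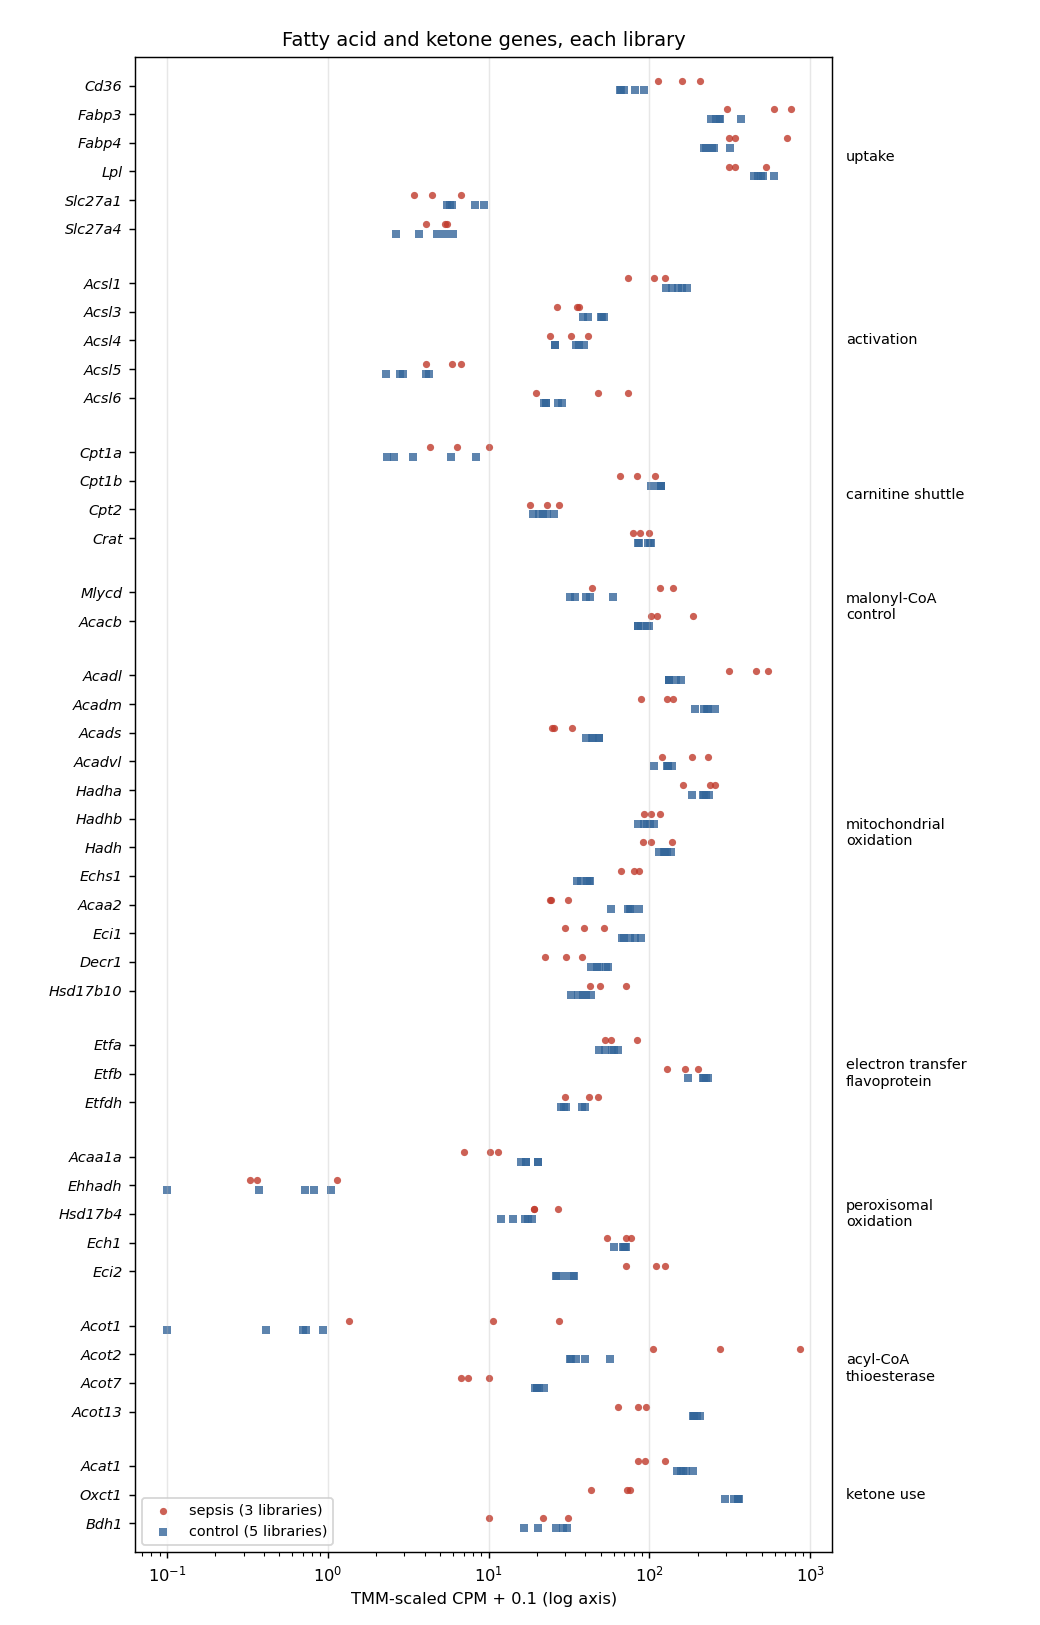
TMM-scaled CPM with 0.1 added, on a log axis, for each of the 44 genes in rows by step, with red circles for the 3 sepsis libraries above blue squares for the 5 control libraries. Acot2 in sepsis spans 105 to 867 CPM, while Acot13, Oxct1 and Acaa2 lie to the left of their controls in every septic library.

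Promoters show what sequence stands before these genes. RefSeq windows of the GRCm38.p6 build were matched by symbol for 35 of the 44 genes, and the 250 bases before the start were searched on both strands. The build differs from that of the counts, and nothing was joined by coordinate. A direct repeat bound by receptors of the PPAR family with RXR, written as AGGTCA, any 1 base and AGGTCA again, with at most 2 mismatches, occurred in 3 of these 35 genes, or 8.57%, against 3.72% of all 27025 genes in the table. With at most 1 mismatch it occurred in 0 of 35, against 0.566% of all genes. The site of estrogen-related receptors, TNAAGGTCA, occurred in 1 of 35, or 2.86%, against 1.3% of all genes. The 2 motifs can overlap, since both hold AGGTCA. All 4 windows with a match are shown, and capitals mark the match, which is read on the opposite strand in Cd36, Etfa and Acsl6. Of these genes 3 rose and Etfa did not pass, where 31% of the 42 tested genes rose. A link between a match and a rise was not tested. They lie at chr5:17835897-17836146 on the minus strand for Cd36, chr7:140116422-140116671 on the minus strand for Echs1, chr9:55512244-55512493 on the minus strand for Etfa and chr11:54303574-54303823 on the plus strand for Acsl6. Cd36, Echs1 and Etfa carry the direct repeat and Acsl6 the receptor site.
Cd36: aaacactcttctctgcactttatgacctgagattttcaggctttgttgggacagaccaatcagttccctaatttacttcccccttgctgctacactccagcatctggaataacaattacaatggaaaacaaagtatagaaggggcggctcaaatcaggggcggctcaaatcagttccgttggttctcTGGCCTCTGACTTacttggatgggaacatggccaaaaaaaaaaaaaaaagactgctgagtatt
Echs1: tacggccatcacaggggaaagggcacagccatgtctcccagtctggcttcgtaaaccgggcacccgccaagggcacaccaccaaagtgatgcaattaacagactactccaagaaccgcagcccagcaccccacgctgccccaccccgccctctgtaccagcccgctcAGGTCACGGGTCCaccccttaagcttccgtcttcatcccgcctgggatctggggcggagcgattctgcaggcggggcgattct
Etfa: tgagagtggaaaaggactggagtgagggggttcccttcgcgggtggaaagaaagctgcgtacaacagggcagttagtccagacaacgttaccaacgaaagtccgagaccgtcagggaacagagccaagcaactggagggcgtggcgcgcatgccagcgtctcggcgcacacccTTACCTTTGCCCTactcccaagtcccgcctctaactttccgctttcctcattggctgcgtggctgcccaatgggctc
Acsl6: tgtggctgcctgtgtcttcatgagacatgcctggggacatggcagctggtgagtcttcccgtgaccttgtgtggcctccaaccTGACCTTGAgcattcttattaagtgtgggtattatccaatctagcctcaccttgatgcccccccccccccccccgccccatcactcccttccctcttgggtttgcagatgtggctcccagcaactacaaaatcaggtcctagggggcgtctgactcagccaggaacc
The matches start 63 bases before the start of Cd36, 83 before Echs1, 77 before Etfa and 167 before Acsl6. A match is a description of the letters and not evidence of binding.

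Among the 6 uptake genes, the membrane fatty acid translocase and both cytosolic binding proteins rose, and none fell. Cd36, which encodes the translocase, had 205, 113 and 159 CPM in the sepsis libraries, against 81.8, 65.7, 92.4, 66.6 and 69.2 in the controls. Every septic library lay above every control, and the log2 fold change was 1.08 (SE 0.18, adjusted p = 0.000270). Its promoter holds the degenerate repeat printed above. Fabp3, the muscle form of the fatty acid binding protein, had 762, 303 and 593 CPM in sepsis, against 259, 271, 369.8, 242 and 274 in controls. Sepsis 2 lay below control 3, so the groups overlapped. Its log2 fold change was 0.96 (SE 0.26, adjusted p = 0.0114), and the call was lost without sepsis 1 at 0.66 (adjusted p = 0.0563) and without sepsis 3 at 0.91 (adjusted p = 0.0832), the highest over its alternatives.

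Fabp4, the form of fat cells, endothelium and macrophages, had 313, 342 and 721 CPM in sepsis, against 317, 251, 223, 218 and 244 in controls. Sepsis 3 was above all other libraries, and sepsis 1 fell just below control 1. The log2 fold change was 0.87 (SE 0.26, adjusted p = 0.0190, up to 0.124 over its alternatives), and without sepsis 3 it was 0.39 (adjusted p = 0.0247). The ratio of Fabp3 to Fabp4 was 2.43, 0.885 and 0.822 in sepsis and between 0.817 and 1.66 in controls. Sepsis 1 was thus richer in the muscle form than any control, and sepsis 2 and 3 were inside the range of the controls.

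Lpl, the lipase that frees fatty acids from lipoproteins, was the most abundant of the 44 genes in controls. It had 527, 340.2 and 313 CPM in sepsis, against 472, 491, 597, 511 and 449.6 in controls. The log2 fold change of -0.36 (SE 0.16) did not pass, at an adjusted p of 0.0842, but without sepsis 1 it was -0.63 and passed (adjusted p = 0.00148). The fatty acid transport protein genes Slc27a1 and Slc27a4 were scarce. Slc27a1 averaged 4.76 ± 1.68 CPM in sepsis (SD, n = 3) and 6.83 ± 1.72 in controls (n = 5), with a log2 fold change of -0.54 (SE 0.30) that passed without sepsis 1 at -0.84 (adjusted p = 0.0482). Slc27a4 had 0.15 (SE 0.30). Summed over the 6 genes, uptake amounted to 1574 ± 404 CPM in sepsis and 1124 ± 102 CPM in controls. Sepsis 2, at 1107 CPM, lay within the controls at 1048 to 1294 CPM, so the groups overlapped.

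Because Cd36, Fabp4 and Lpl are also made outside the fibres, markers of other cells are given beside them. Of 12 capillary endothelial markers 7 rose and 2 fell, and their summed level was 561 to 823 CPM in sepsis and 355 to 417 CPM in controls. In TMM-scaled CPM Rgcc supplied that gap, with 201 to 429.5 CPM in sepsis and 15.5 to 25.2 CPM in controls. The other 11 markers summed to 320.0 to 394 CPM in sepsis and 329.8 to 399.5 CPM in controls, and the groups overlapped. These 11 held the 2 that fell, Kdr and Aqp1, beside others that rose. With library totals alone 9 of the 12 were higher and 1 lower. Of 10 macrophage markers tested from a list of 11, 7 rose and none fell, with sums of 328 to 563 CPM in sepsis and 81.8 to 212 CPM in controls. Of 7 adipocyte markers tested from a list of 8, Plin4, which muscle fibres also express, rose and none fell, and the sums were 332 to 509 CPM in sepsis and 227 to 368 CPM in controls. Without Plin4 they were 102 to 186 CPM in sepsis and 103 to 264 CPM in controls, and Lep, the leptin gene, had 1 read over the septic libraries and 27 over the controls. These sums without a leading gene were chosen after seeing the data. The adiponectin gene Adipoq, a defining fat cell marker, had 13 to 23.4 CPM in sepsis and 12.3 to 29.7 CPM in controls. All 12 fast fibre markers fell, and 3 of 8 slow fibre markers fell with none higher. With library totals alone 9 of the 12 fast fibre markers were lower and 0 higher. The slow fibre markers then had 1 higher and 1 lower, and all 10 macrophage markers tested were higher. Among all genes tested in the main fit 25.2% were higher and 25.2% lower. Neutrophil markers, summed over 7 genes, had 66.5 to 147 CPM in sepsis and 0.300 to 1.27 CPM in controls. The part of these cells in the uptake genes was not tested.

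The 5 acyl-CoA synthetases, which activate fatty acids by joining them to coenzyme A, went in different directions. Acsl1, the main form of muscle, had 125, 107 and 73.9 CPM in sepsis, against 171, 127, 159, 138 and 151 in controls. All septic values lay below all controls, with a log2 fold change of -0.56 (SE 0.16, adjusted p = 0.0116). Acsl3 also fell, by 0.50 on the log2 scale (SE 0.16, adjusted p = 0.0165), a call lost without sepsis 3 at -0.37 (adjusted p = 0.0594). Both lost their calls with library totals alone, at -0.14 for Acsl1 and -0.08 for Acsl3.

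Acsl6, a form of brain and red cell precursors that muscle also expresses, had 73.1, 47.5 and 19.6 CPM in sepsis, against 22.7, 26.9, 21.9, 28.5 and 22.5 in controls. Sepsis 1 and 2 were above all controls and sepsis 3 was below them all. Its log2 fold change of 0.93 (SE 0.34) passed at an adjusted p of 0.0429, yet the call was lost when any single library but sepsis 3 was left out, with values of 0.45 without sepsis 1, 0.92 without sepsis 2 and 0.88 to 0.99 without a control. Acsl5 rose as well, with 5.48 ± 1.35 CPM in sepsis and 3.17 ± 0.846 in controls, 0.79 (SE 0.30, adjusted p = 0.0443). It passed the filter on low counts in 3 septic and only 2 control libraries, and its call was lost without sepsis 2 (0.75) or 3 (0.64) or control 2 (0.68), 3 (0.73) or 5 (0.75). Acsl4 averaged 32.6 ± 8.78 CPM in sepsis and 32.5 ± 6.21 CPM in controls, a log2 fold change of 0.00 (SE 0.20).

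Of the 4 carnitine shuttle genes 1 fell and none rose, while with library totals alone 2 rose and none fell. Cpt1b, the muscle form of the palmitoyltransferase that commits fatty acids to oxidation, had 108, 65.3 and 83.7 CPM in sepsis, against 101, 115, 118, 118 and 117 in controls. Sepsis 1 fell inside the range of the controls and the other septic libraries below it. The log2 fold change was -0.41 (SE 0.15, adjusted p = 0.0327). That call was lost without sepsis 2 (-0.25), sepsis 3 (-0.40), control 2 (-0.42), control 3 (-0.41), control 4 (-0.40) or control 5 (-0.41), and with library totals alone the value was -0.01.

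Cpt1a, the liver form, had 4.24, 6.28 and 10.0 CPM in sepsis, against 8.29, 2.50, 3.30, 5.76 and 2.22 in controls, and its log2 fold change of 0.63 (SE 0.42) did not pass (adjusted p = 0.230). Without control 1, its highest control, the value was 1.01 with an adjusted p of 0.0491. Cpt1b supplied 96.2%, 91.2% and 89.3% of the reads of the pair in sepsis, with 95% Wilson intervals of 93.9% to 97.7%, 87.8% to 93.8% and 86.0% to 91.9%. In the controls its share ran between 92.4% and 98.1%. These intervals cover counting error only. The muscle form made up most reads in every library, and the groups overlapped.

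Cpt2, which rebuilds acyl-CoA inside the mitochondrion, averaged 22.8 ± 4.65 CPM in sepsis and 21.8 ± 2.54 CPM in controls, a log2 fold change of 0.06 (SE 0.17). Crat, the carnitine acetyltransferase that buffers acetyl-CoA, averaged 88.4 ± 9.74 CPM in sepsis and 94.7 ± 8.46 CPM in controls, at -0.10 (SE 0.12). Neither passed.

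Among the 44 genes, both of those that set malonyl-CoA, the inhibitor of Cpt1, rose. Mlycd, the decarboxylase that removes malonyl-CoA, had 116, 44.1 and 140.8 CPM in sepsis, against 42.6, 31.9, 59.7, 40.3 and 34.6 in controls. Sepsis 2 lay within the range of the controls and the other septic libraries were above it. The log2 fold change was 1.26 (SE 0.35, adjusted p = 0.0150), and the call was lost without sepsis 1 at 1.14 (adjusted p = 0.0659) and without sepsis 3 at 0.93 (adjusted p = 0.101). Acacb, the acetyl-CoA carboxylase that makes malonyl-CoA at the mitochondrial surface, had 187, 101 and 111 CPM in sepsis, against 85.4, 85.3, 99.0, 96.5 and 88.6 in controls. The groups did not overlap, at 0.55 (SE 0.17, adjusted p = 0.0191), but without sepsis 1 the value was 0.22 (adjusted p = 0.161). The ratio of Mlycd to Acacb was 0.621, 0.435 and 1.27 in sepsis and 0.374 to 0.603 in controls.

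Of the 4 acyl-CoA dehydrogenases among the 44 genes, which open the mitochondrial cycle, Acadl and Acadvl rose and Acadm and Acads fell. Acadl, the long-chain acyl-CoA dehydrogenase, had 458, 314 and 545 CPM in sepsis, against 132, 133, 156, 131 and 146 in controls. Every septic value was above every control, by 3.14-fold, with a log2 fold change of 1.65 (SE 0.15, adjusted p = 1.86e-06). Acadvl, the very-long-chain form, had 232, 120.1 and 183 CPM in sepsis, against 129, 130.4, 139, 107 and 129.6 in controls. Sepsis 2 lay among the controls. Its log2 fold change of 0.49 (SE 0.17, adjusted p = 0.0322) lost its call without sepsis 1 (0.25), sepsis 3 (0.47), control 1 (0.49), control 2 (0.49), control 4 (0.44) or control 5 (0.49), with adjusted p-values of up to 0.222.

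Acadm, the medium-chain form, had 139, 128 and 88.2 CPM in sepsis, against 192, 227, 256, 219 and 232 in controls. The septic values were all lower, with a log2 fold change of -0.93 (SE 0.15, adjusted p = 0.000222). Acads, the short-chain form, fell by 0.70 on the log2 scale (SE 0.14, adjusted p = 0.00116), at 27.7 ± 4.66 CPM in sepsis and 45.1 ± 3.45 CPM in controls. It missed the threshold with library totals alone, at -0.29. The ratio of Acadl to Acadm was 3.29, 2.44 and 6.18 in sepsis, against 0.689, 0.585, 0.612, 0.600 and 0.630 in controls. Acadl transcripts thus outnumbered those of Acadm in each septic library, and the reverse held in each control. Acadvl is not part of this ratio.

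The later steps of the cycle split as well. Echs1, the short-chain hydratase, had 86.6, 66.7 and 79.8 CPM in sepsis, against 37.3, 42.5, 42.3, 40.7 and 35.2 in controls. The septic libraries were all higher, by 1.96-fold, with a log2 fold change of 0.97 (SE 0.13, adjusted p = 3.49e-05), and its promoter was printed above. Acaa2, the thiolase that ends the cycle, had 31.3, 24.3 and 24.1 CPM in sepsis, against 57.5, 75.3, 86.4, 73.8 and 76.8 in controls. The septic libraries were all lower, by 2.79-fold, at -1.48 (SE 0.16, adjusted p = 6.79e-06). The ratio of Echs1 to Acaa2 was 2.77, 2.75 and 3.31 in sepsis and 0.459 to 0.649 in controls.

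The subunits of the trifunctional protein, which carries out the last reactions of the cycle on long chains, did not pass. Hadha averaged 217.5 ± 48.8 CPM in sepsis and 214 ± 18.6 CPM in controls, at 0.02 (SE 0.14). Hadhb had 0.10 (SE 0.12). Hadh, the hydroxyacyl-CoA dehydrogenase of shorter chains, had -0.19 (SE 0.14), and without sepsis 1 it passed at -0.38 (adjusted p = 0.0217). Hsd17b10, a dehydrogenase of branched short chains that is also part of the mitochondrial tRNA processing enzyme, rose to 54.8 ± 15.2 CPM in sepsis, against 38.1 ± 4.28 CPM in controls. Its log2 fold change of 0.53 (SE 0.17, adjusted p = 0.0199) lost its call without sepsis 3 at 0.28.

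Eci1 and Decr1, which prepare unsaturated chains for the mitochondrial cycle, both fell. Eci1, the mitochondrial enoyl-CoA isomerase, averaged 40.5 ± 11.4 CPM in sepsis and 76.4 ± 8.5 CPM in controls, with a log2 fold change of -0.92 (SE 0.17, adjusted p = 0.000638). Decr1, the dienoyl-CoA reductase, averaged 30.1 ± 7.98 CPM in sepsis and 49.6 ± 4.91 CPM in controls, at -0.73 (SE 0.17, adjusted p = 0.00316), and with library totals alone it missed at -0.32. The groups did not overlap for either gene. Of the 12 mitochondrial genes in all, 4 rose, 5 fell and 3 did not pass. Their summed level of 1425 ± 259 CPM in sepsis and 1251 ± 86.5 CPM in controls differed by less than the spread of the septic libraries.

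Of the 3 genes of electron transfer flavoprotein 1 fell and none rose, and with library totals alone 2 rose and none fell. Etfb, its beta subunit, had 199, 129 and 166 CPM in sepsis, against 174, 218, 215, 230.1 and 225 in controls. Its log2 fold change of -0.37 (SE 0.14, adjusted p = 0.0473) lost its call without sepsis 2 (-0.21), sepsis 3 (-0.37), control 2 (-0.36), control 3 (-0.37), control 4 (-0.33) or control 5 (-0.35), and it turned to 0.04 with library totals alone. Etfa, the alpha subunit, had 0.19 (SE 0.16), and with library totals alone it passed at 0.59 (adjusted p = 0.00270). Etfdh, the oxidoreductase that hands the electrons to ubiquinone, had 0.27 (SE 0.18), and passed without sepsis 2 at 0.45 (adjusted p = 0.0376) and with library totals alone at 0.67 (adjusted p = 0.00302).

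**Figure D2:**
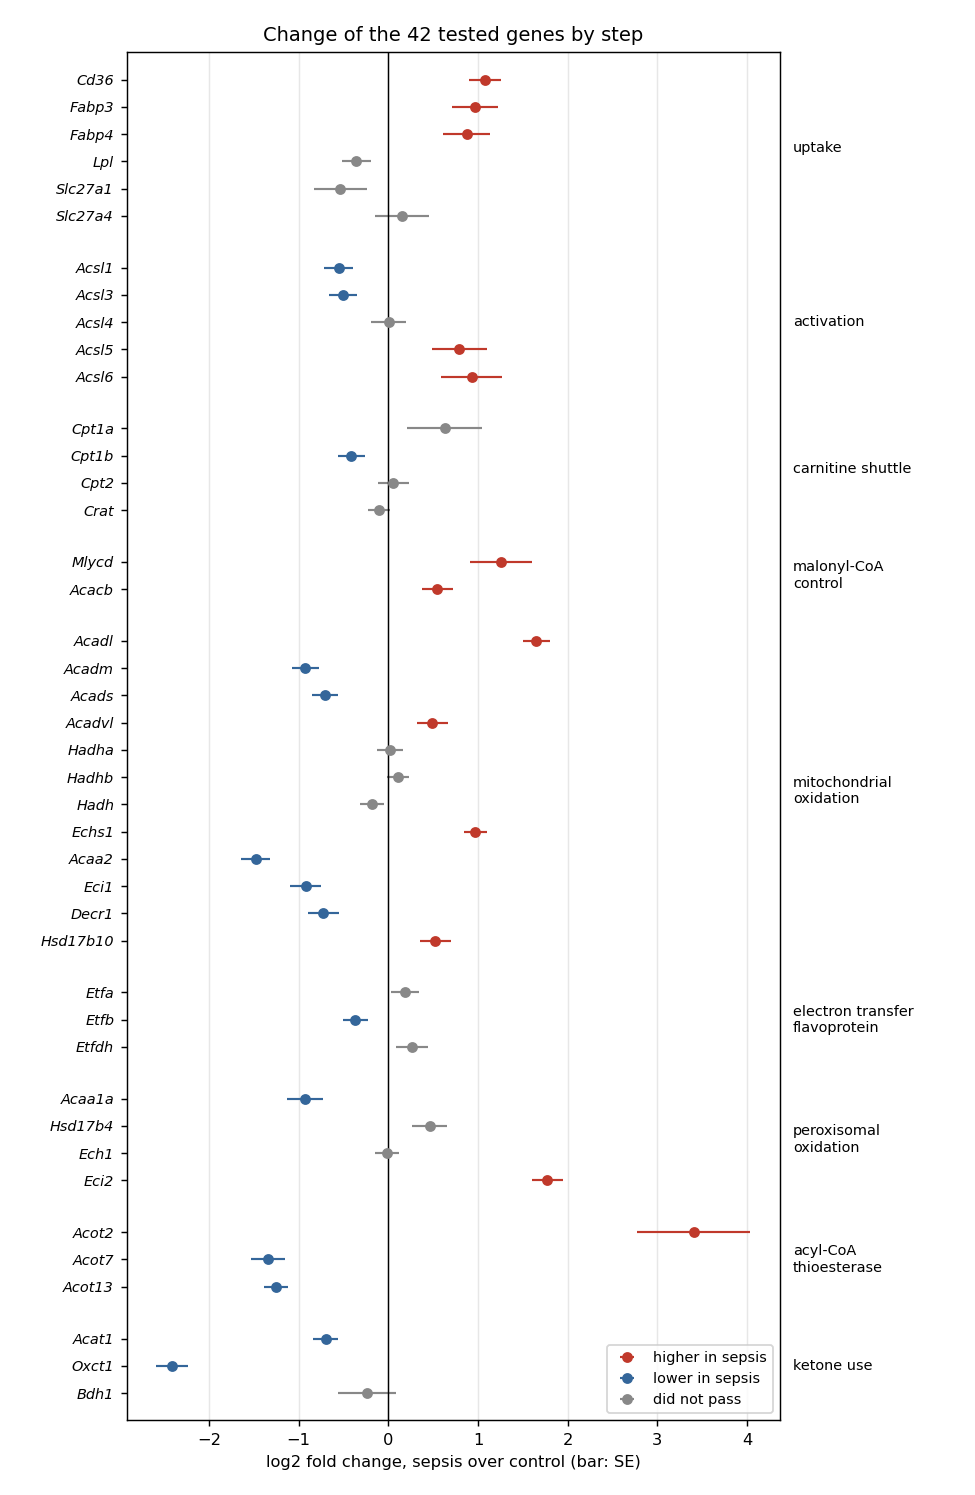
Log2 fold change of sepsis over control, with its SE as a bar, for the 42 tested genes in rows by step, coloured red where higher past the threshold, blue where lower and grey where not passing. Within mitochondrial oxidation Acadl sits at 1.65 and Acaa2 at -1.48, and the ketone gene Oxct1 lies farthest to the left at -2.41.

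Peroxisomal genes also differed among themselves. Eci2, an enoyl-CoA isomerase of peroxisomes that is found in mitochondria too, had 110.2, 71.6 and 126 CPM in sepsis, against 26.5, 26.3, 33.6, 33.9 and 29.9 in controls. The septic libraries were all higher, by 3.41-fold, with a log2 fold change of 1.77 (SE 0.17, adjusted p = 3.16e-06). The ratio of Eci2 to its mitochondrial counterpart Eci1 was 2.10, 1.83 and 4.22 in sepsis and 0.378 to 0.416 in controls. Acaa1a, the peroxisomal thiolase, had 6.89, 10.0 and 11.4 CPM in sepsis, against 20.2, 20.3, 17.1, 16.9 and 15.9 in controls. The septic libraries were all lower, at -0.93 (SE 0.20, adjusted p = 0.00178), and with library totals alone the value was -0.51 (adjusted p = 0.0552).

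Ech1, a dienoyl-CoA isomerase of peroxisomes and mitochondria and the most abundant member at this step in controls, had 77.1, 54.2 and 71.4 CPM in sepsis, against 69.9, 68.8, 69.9, 60.5 and 71.4 in controls. The change was -0.01 on the log2 scale (SE 0.13). Hsd17b4, the bifunctional enzyme of peroxisomes, had 0.46 (SE 0.19, adjusted p = 0.0613) with groups that did not overlap, and without sepsis 2 it passed at 0.55 (adjusted p = 0.0441). Ehhadh, the other bifunctional enzyme, had 7 reads over the 3 septic libraries and 8 over the 5 controls, too few to be tested. With both directions present, the counts were 1 higher, 1 lower and 2 that did not pass among the 4 tested. The summed level was 202 ± 41.1 CPM in sepsis and 132 ± 5.16 CPM in controls, and without Eci2 it was 99.2 ± 13.2 CPM in sepsis and 102 ± 6.21 CPM in controls.

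Acyl-CoA thioesterases, which free fatty acids from coenzyme A, held the largest rise of the 42 tested genes. Acot2, the mitochondrial matrix form, had 274, 105 and 867 CPM in sepsis, against 32.1, 35.0, 56.7, 39.6 and 32.4 in controls. All septic libraries were higher, but they spread widely, with sepsis 3 far above sepsis 2. The log2 fold change was 3.41 (SE 0.63, adjusted p = 0.00336), a 10.6-fold rise, and without sepsis 3 it was 2.27 (adjusted p = 0.00375). Acot1, its cytosolic neighbour, had 40, 6 and 120 reads in the sepsis libraries, against 3, 1, 2, 0 and 2 in the controls, and did not pass the filter on low counts. With no filter its log2 fold change was 4.65 (adjusted p = 0.0231).

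Reads of this pair could be shared, because the genes are paralogs. In the GENCODE M21 transcripts Acot1 and Acot2 were 67.2% identical over the whole length and 42.7% over the last 200 bases. None of the 151 words of 50 bases in the last 200 bases of either gene was found in the other. Acot1 supplied 3.72%, 1.19% and 3.05% of the reads of the pair in sepsis and 0% to 2.52% in controls. Reads of Acot2 counted for Acot1 were not tested further.

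Acot7 and Acot13 fell. Acot9, a mitochondrial thioesterase outside the 44 genes that was picked after its values were seen, rose to 20.9 ± 3.52 CPM in sepsis, against 10.7 ± 1.91 CPM in controls, at 0.98 (SE 0.19, adjusted p = 0.00101). Acot7, a cytosolic long-chain thioesterase, had 6.62, 7.32 and 10.0 CPM in sepsis, against 19.9, 20.01, 20.4, 19.4 and 21.9 in controls. The septic libraries were all lower, by 2.53-fold, at -1.34 (SE 0.19, adjusted p = 5.91e-05). Acot13, a thioesterase that associates with mitochondria, averaged 81.0 ± 16.2 CPM in sepsis and 194 ± 7.21 CPM in controls, at -1.26 (SE 0.13, adjusted p = 6.46e-06).

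Of 3 ketone genes, 2 fell and none rose. Oxct1, the transferase that activates acetoacetate and limits ketone oxidation, had 72.6, 75.7 and 43.4 CPM in sepsis, against 296, 337, 354, 355 and 360.1 in controls. The septic libraries were all lower, by 5.32-fold, with a log2 fold change of -2.41 (SE 0.17, adjusted p = 2.93e-07), the largest fall of the 42 genes. Acat1, the thiolase that splits acetoacetyl-CoA and also serves isoleucine breakdown, averaged 101 ± 21.3 CPM in sepsis and 164 ± 14.3 CPM in controls. It fell by 0.70 on the log2 scale (SE 0.14, adjusted p = 0.000979), and with library totals alone missed at -0.29. Bdh1, which oxidises hydroxybutyrate to acetoacetate, averaged 20.9 ± 10.5 CPM in sepsis and 24.6 ± 6.04 CPM in controls, at -0.24 (SE 0.32). The ratio of Oxct1 to Acat1 was 0.579, 0.808 and 0.512 in sepsis, against 1.88 to 2.39 in controls.

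**Figure D3:**
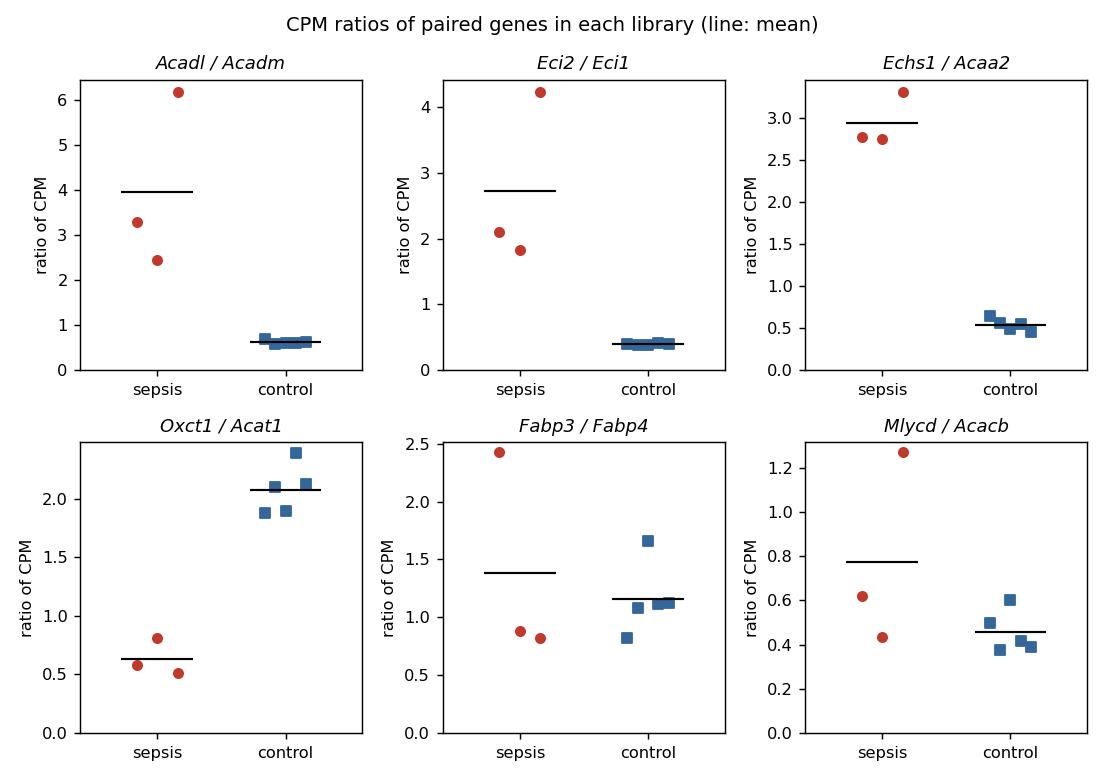
Ratio of CPM between paired genes in each library, sepsis (red circles, 3 libraries) left of control (blue squares, 5 libraries), with the mean as a line; the pairs were chosen after their values were seen. For Acadl over Acadm the septic libraries lie at 2.44 to 6.18, above all controls, and for Oxct1 over Acat1 at 0.512 to 0.808, below all controls, while Fabp3 over Fabp4 and Mlycd over Acacb overlap.

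The steps, set side by side, had medians of 0.51 for uptake, -0.02 for the carnitine shuttle, -0.08 for mitochondrial and 0.22 for peroxisomal oxidation, on the log2 fold change scale and beside 0.01 for all genes tested. The genes higher and lower were 3 and 0, 0 and 1, 4 and 5, and 1 and 1 in that order of steps. All genes tested had 25.2% higher and 25.2% lower. With library totals alone the steps had 3 and 0, 2 and 0, 6 and 3, and 3 and 0. The steps were not tested against each other. Summed ketone genes had 186 ± 45.5 CPM in sepsis and 529 ± 32.6 CPM in controls, and the groups did not overlap.

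**Figure D4:**
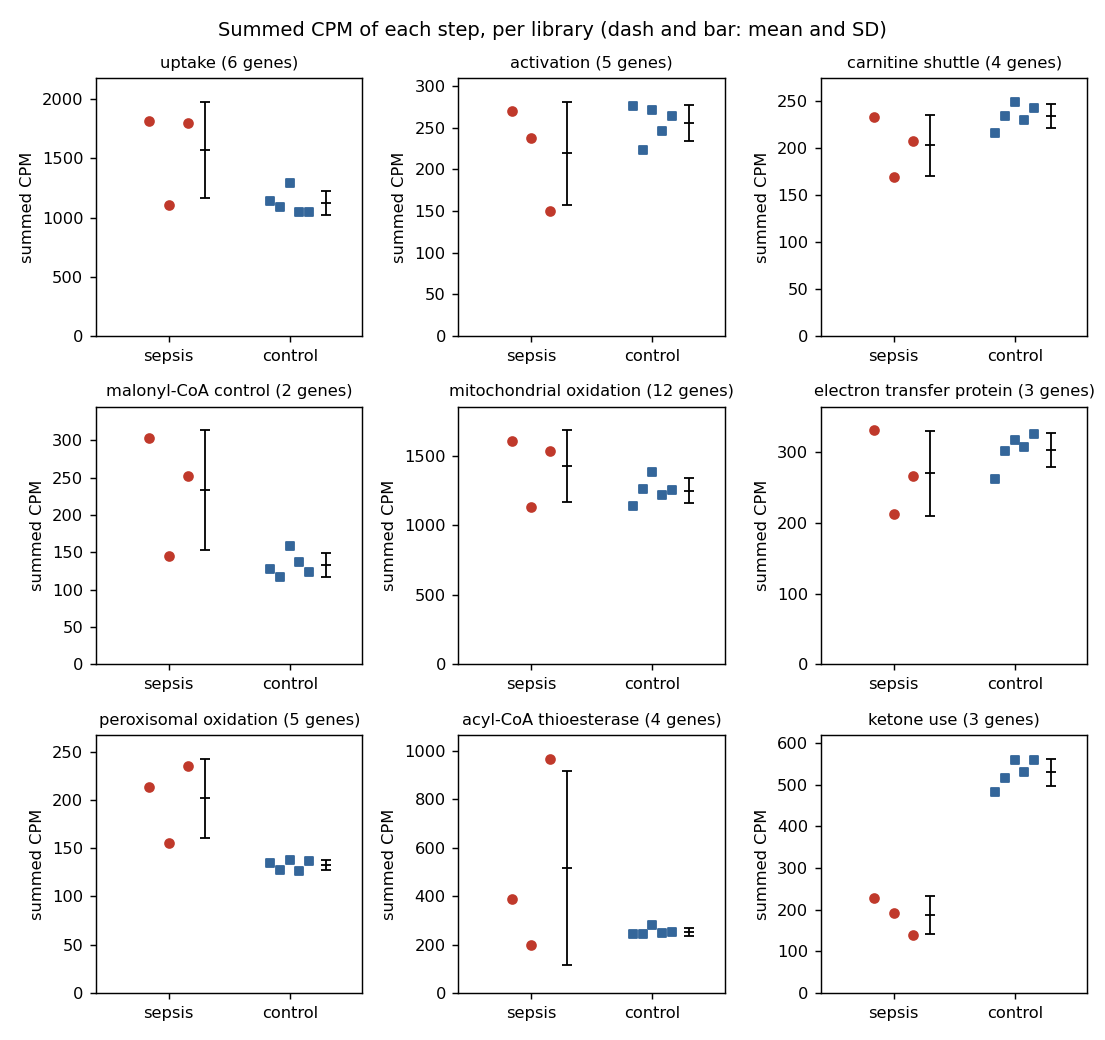
Summed CPM of the genes of each of the 9 steps in each library, sepsis (red circles) left of control (blue squares), with the mean and SD beside them. Peroxisomal sums lie at 156 to 236 CPM in sepsis, above the controls at 126 to 137 (without Eci2, 84.3 to 109.8 in sepsis and 92.2 to 108 in controls), and ketone sums at 138 to 229, below the controls at 483 to 560.

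The septic libraries did not move as a block. Of the 13 genes that rose, sepsis 2 held the lowest septic CPM for 10 and the highest for 0, and sepsis 3 held the highest for 7. Of the 14 that fell, sepsis 3 held the lowest septic CPM for 9 and sepsis 1 the highest for 10. With library totals alone sepsis 2 was the lowest for 9 of the 13. The TMM factor of sepsis 2, at 1.30, was the highest of the 8 libraries. 

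Other genes of the pathway, taken from 7 lists with 85 genes, of which 70 were tested, moved both ways, with 16 higher and 24 lower. That is 22.9% higher and 34.3% lower, or 57.1% called, against 25.2% in each direction and 50.4% called among all genes tested. Around uptake, Gpihbp1, which anchors lipoprotein lipase in capillaries, rose (0.83, SE 0.19, adjusted p = 0.00289). Dbi, the acyl-CoA binding protein, and Got2, an aminotransferase also named as a fatty acid binding protein of the membrane, fell by 0.61 and 0.56, calls that both lost with library totals alone at -0.21 and -0.15. Around the shuttle, Slc25a20, the carrier that takes acylcarnitine into mitochondria, had 0.29 (SE 0.20) and did not pass, though with library totals alone it did at 0.70 (adjusted p = 0.00582). Crot, the carnitine octanoyltransferase of peroxisomes, fell by 1.61 (SE 0.27), Aldh9a1, an enzyme of carnitine synthesis, rose with 1.19 (SE 0.31), and Slc22a5, the carnitine importer, fell by 1.25 (SE 0.42) from few reads. The call of Slc22a5 was lost without sepsis 1 (-0.91) or control 5 (-1.11), and with library totals alone (-0.82).

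Further mitochondrial acyl-CoA genes counted 3 higher and 6 lower of 15 tested, or 20% and 40%, against 25.2% in each direction among all genes. Acadsb, a dehydrogenase of short branched chains, averaged 130.1 ± 27.4 CPM in sepsis and 73.0 ± 3.74 CPM in controls, at 0.83 (SE 0.13). Mcee and Pcca, which handle the propionyl-CoA of odd chains and amino acids, fell by 1.28 (SE 0.15) and 1.17 (SE 0.19). Further peroxisomal genes counted 3 higher and 5 lower of 15 tested, or 20% and 33.3%. All 20 listed summed to 414 to 471.0 CPM in sepsis and 472.2 to 517 CPM in controls, so the groups all but touched. These sums rest on the TMM factors. With library totals alone 4 of the 15 were higher and 4 lower. The median log2 fold change of the list was then 0.21, against -0.20 in the main fit.

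Abcd2, an importer of very-long-chain acyl-CoA into peroxisomes, fell to 4.43 ± 1.97 CPM in sepsis, against 39.8 ± 3.66 CPM in controls, an 8.78-fold change at -3.13 (SE 0.23, adjusted p = 3.21e-07). Pecr, a reductase, fell by 2.11 (SE 0.21), and Pex11a, a gene of peroxisome division, by 1.72 (SE 0.21). Cat, the catalase gene, rose to 85.3 ± 6.79 CPM in sepsis, against 35.95 ± 7.41 CPM in controls, at 1.24 (SE 0.15, adjusted p = 2.29e-05). Among the peroxisomal genes named, Eci2 and Cat were higher and Acaa1a, Crot, Abcd2, Pecr and Pex11a lower. Ech1 and Hsd17b4 did not pass and Ehhadh was not tested. Several were named for a small p, so this tally is not a share of all peroxisomal genes.

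AMPK restrains the making of malonyl-CoA. Of the 9 genes listed for it and its partners 2 rose and 5 fell. Prkag3, the regulatory subunit of fast fibres, fell to 14.4 ± 11.1 CPM in sepsis, against 171 ± 14.9 CPM in controls, at -3.55 (SE 0.41, adjusted p = 0.000108), and without sepsis 2 the value was -4.40. Prkab2 and Prkag1, further subunits, fell by 0.99 (SE 0.14) and 0.84 (SE 0.13). Among other ketone genes Slc16a1, a carrier of ketone bodies and lactate, rose with 0.96 (SE 0.18, adjusted p = 0.000713).

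Of 15 regulators of the pathway 2 rose and 3 fell, or 33.3% called, against 50.4% of all genes tested. Esrra, the estrogen-related receptor alpha, had 11.7, 9.62 and 4.78 CPM in sepsis, against 33.7, 30.01, 29.4, 27.4 and 25.7 in controls, a fall of 1.76 on the log2 scale (SE 0.24, adjusted p = 4.90e-05). Rxrg, a retinoid X receptor, fell by 3.20 (SE 0.24, adjusted p = 3.20e-07), and Klf15, a transcription factor of muscle lipid and amino acid use, rose with 2.10 (SE 0.26, adjusted p = 2.60e-05). The other retinoid X receptors, Rxra at -0.02 (SE 0.13) and Rxrb at 0.10 (SE 0.19), did not pass. Rxra averaged 82.0 CPM in sepsis and 83.1 CPM in controls, and Rxrg 5.68 and 51.5 CPM. The PPAR genes did not pass: Ppara had 48.2, 15.1 and 11.8 CPM in sepsis, against 12.7, 9.69, 17.1, 27.4 and 14.0 in controls, at 0.62 (SE 0.50), and Ppard had -0.09 (SE 0.22). Without sepsis 1 the value of Ppara was -0.26. Ppargc1a, the coactivator of both, had 66.2, 70.1 and 12.1 CPM in sepsis, against 72.7, 64.1, 84.3, 96.9 and 65.1 in controls, at -0.63 (SE 0.49), with sepsis 3 alone below all controls. Ppargc1b, of the same family, fell by 1.51 (SE 0.27, adjusted p = 0.000453).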

How the data were processed

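Per the labels' protocols, 25 ng of total RNA from each gastrocnemius sample entered a QuantSeq 3′ library kit. The deposited table holds raw counts of reads for each gene, with a column for each library and no pooling. The genome build was GRCm39 per the submitters' processing notes; the aligner, counter, strand setting and annotation are not given in the sources used here, so reads of overlapping or antisense genes cannot be told apart.

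Counts were tested with edgeR 4.0.16 in R 4.3.3: expression filter (minimum count 10, minimum total 15), TMM scaling, robust quasi-likelihood F test of sepsis against control over all 8 libraries, Benjamini-Hochberg adjustment, threshold 0.05. Fold changes are sepsis over control. The SE is the log2 fold change divided by the square root of F. CPM used TMM-scaled library sizes. Of 25655 gene rows, 9287 had no read.

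The genes, steps and lists were chosen with earlier results of these data known. Values in every library are given for the largest rise, the largest fall and the most abundant gene of each step and for isozyme pairs, and for further genes chosen after their values were seen. Of each other pathway list at most 3 genes with the smallest p are named, plus a few fixed ones; some genes that this rule names are not reported here. Each pathway and marker gene list is described by counts, with no set test. Alternatives used DESeq2 1.42.0 and limma 3.58.1. The edgeR procedure was tested on simulated data with known changes. Those changes covered a small part of the genes, with directions drawn at random, so the simulations do not bear on the choice of scaling.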

Additional observations from a re-analysis of the deposited data

Results flagged for a closer look

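The 5 controls of each of the 44 genes were screened for a library whose gap to its nearest neighbour exceeded Dixon's critical value of 0.71 of the group's range, which chance alone exceeds in about 1 of 20 groups. In all, 4 genes had such a control. Fabp3 had 369.8 CPM in control 3, which rounds to 370.0, against 242 to 274 CPM in the other controls. Cpt1b had 101 CPM in control 1, against 115 to 118 CPM in the others. Etfb had 174 CPM in control 1, against 215 to 230.1 CPM in the others. Ech1 had 60.5 CPM in control 4, against 68.8 to 71.4 CPM in the others. Groups of 3 were not screened, so the spread of the septic libraries for Acot2, Acsl6 and Fabp4 is not covered.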

How the results depend on the processing

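Scaling moved counts most. With library totals alone, 4251 genes were higher and 1392 lower, 21 and 6 of the 44 genes followed here, with a median of 0.43. Uptake then had a median of 0.93, the carnitine shuttle 2 higher, 0 lower and 0.39, mitochondrial oxidation 3 lower and 0.32, and peroxisomal oxidation 3 higher, 0 lower and 0.63. The sign turned for Bdh1 (0.175), Crat (0.31), Ech1 (0.391), Etfb (0.0357), Hadh (0.22), Lpl (0.0471) and Ppard (0.318). With upper-quartile factors 1 uptake gene was lower, Acsl4 was -0.0356 and Hadha -0.0289. With limma voom and group weights Acsl4 was -0.017 and Hadha -0.00437, and with no filter Ech1 was 0.0183. A minimum count of 30 gave 1 lower uptake gene, an uptake median of 0.87, Acsl4 at -0.0388 and Hadha at -0.0243.

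The labels do not say whether replicate numbers mark pairs. Same-numbered libraries had r of -0.0857, -0.0141 and -0.0195, and differently numbered ones -0.0873 to 0.114. These r were taken on deviations from the mean of 3 libraries in each group, so they cannot settle whether the samples were paired. With the replicate block 8 of the 44 genes were higher and 11 lower, 0 shuttle genes were lower and Acsl4 was -0.0582. The same 6 libraries without the block, an alternative chosen after seeing the data, gave 6 higher, 0 shuttle genes lower, 2 mitochondrial genes higher and Acsl4 at -0.0382. Both fits held fewer libraries than the main fit, and the part of this in the lost calls was not tested.

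Without single libraries, 8 to 14 of the 44 genes were higher and 11 to 17 lower, with medians of -0.04 to 0.13. Uptake had 2 to 3 higher, 0 to 2 lower and medians of 0.25 to 0.58, the shuttle 0 to 1 higher, 0 to 1 lower and -0.09 to 0.09, mitochondrial oxidation 2 to 4 higher, 5 to 6 lower and -0.21 to 0.06, and peroxisomal oxidation 1 to 2 higher, 1 lower and 0.11 to 0.34. The sign turned without at least 1 library for Acsl4 (-0.209 to 0.186), Bdh1 (-0.627 to 0.0955), Cpt2 (-0.097 to 0.21), Ech1 (-0.124 to 0.128), Etfa (-0.0364 to 0.318), Hadha (-0.107 to 0.199), Ppara (-0.256 to 0.962) and Ppard (-0.187 to 0.0915). Of all genes that turned, Etfb alone had passed the threshold. The cause of these changes was not tested. Depth limits Ehhadh, Acot1 and Slc22a5, which had few reads.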
